A study of Drosophila melanogaster with 18 samples.

Results

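The effect of E(z) knockdown on RNA levels was compared between 2 stages of the early Drosophila melanogaster embryo, before nuclear cycle 9 and at nuclear cycle 14, with 3 replicate libraries of knockdown (E(z)-KD) and control (WT) embryos at each stage. The comparison takes 12 of the 18 libraries of the series, and it asks for each gene whether E(z)-KD differed from WT at cycle 14 by another ratio than before cycle 9. E(z)-KD embryos came from mothers in which a germline driver, matα4-GAL-VP16, expressed a short hairpin RNA against E(z) (line TRiP.HMS00066, inserted at attP2), so that the RNA was depleted from the material that the mother loads into the egg. The WT libraries are named after a single attP2 control line, while the knockdown libraries are named after a cross to the driver line, and whether WT mothers carried the driver is not stated in the sources used here. Genetic background and E(z) depletion therefore cannot be told apart in any of the differences below. Embryos were laid over 1 h at 25 °C and staged by hand. The sample labels call the material nuclear RNA and the study's methods describe total RNA. The remaining 6 libraries, from embryos depleted of the acetyltransferase CBP (CBP-KD) at the same stages, share no sample with the comparison. They entered the fit through the filter on low counts, the scaling and the estimate of spread, and their levels are given beside some results.

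E(z) is the catalytic subunit of the Polycomb repressive complex PRC2, which methylates lysine 27 of histone H3, a mark of repressed developmental genes. Before cycle 9 the embryo lives almost entirely on RNA made in the mother's ovary. By cycle 14 the zygotic genome is being transcribed on a large scale and much of the maternal RNA is being degraded. The effect at cycle 14 minus that before cycle 9 (the stage comparison) is given as a log2 value. It is positive where the ratio of E(z)-KD to WT was greater at cycle 14 than before cycle 9, and negative where it was smaller.

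The 12 libraries held 6243485 to 17946981 counts per library, the fewest in WT replicate 1 at cycle 14, and replicates of a group differed by more than counting noise (chi-square per gene 3.74 to 18.1). Levels are CPM, counts scaled to library size with TMM factors, and 3 counts correspond to 0.166 to 0.474 CPM, depending on the library. Of the eggshell and follicle cell markers, 0 of 19 had enough counts to be tested and 0.632 CPM was the highest value of any. The 13 markers of later embryonic tissue summed to 25.2 to 37.5 CPM in E(z)-KD and 118 to 139 CPM in WT at cycle 14, and nearly all of this was the neuronal gene elav, with 24.1, 29 and 35.9 CPM in E(z)-KD against 135, 115 and 128 CPM in WT. Only 2 of the 13 (elav and nSyb) had enough counts to be tested, and 2 (Mlc1 and wupA) were at 0 in all 12 libraries. At the same stage the 3 yolk markers summed to 160 to 204 CPM in E(z)-KD and 120 to 151 CPM in WT, and the 6 germ plasm markers to 726 to 806 CPM in E(z)-KD and 435 to 482 CPM in WT. These are whole embryos, in which fewer cells of a type and less RNA per cell cannot be told apart, and a difference in age within cycle 14 between the genotypes was not tested.

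E(z) itself was depleted at both stages, but far less deeply at cycle 14. Before cycle 9 E(z) stood at 0.0565, 0.269 and 0.221 CPM in the E(z)-KD libraries, against 106, 97.9 and 104 CPM in WT. At cycle 14 it stood at 3.51, 5.27 and 5.45 CPM in E(z)-KD, against 34.6, 31.9 and 32.8 CPM in WT. All 3 knockdown libraries lay below all 3 WT libraries at each stage, and the knockdown libraries were higher at cycle 14 than before cycle 9 while the WT libraries were lower. Summed over replicates the counts before cycle 9 were 9 in E(z)-KD and 5309 in WT, a 577-fold difference (304 to 1262, 95% interval for counting error only), and the difference at cycle 14 was 6.92-fold (5.98 to 8.04). The log2 effect was −9.11 ± 0.31 before cycle 9 and −2.80 ± 0.20 at cycle 14 (estimate ± SE, n = 3 per group), and the effects differed by 6.31 ± 0.46 (adjusted p = 3.30e-08, edgeR quasi-likelihood test with Benjamini-Hochberg adjustment over 8467 genes). All adjusted p-values below come from this fit. E(z) lies on chromosome 3L, positions 10634575 to 10638130 of dm6, and CG34001 overlaps it on the opposite strand. Of the cofactors of E(z) in PRC2, Su(z)12 and Pcl were called at cycle 14 alone. Su(z)12 had 59.2, 70.6 and 66.9 CPM in E(z)-KD at cycle 14 against 134, 135 and 135 CPM in WT, where before cycle 9 it had 217, 221 and 223 CPM in E(z)-KD and 244, 239 and 246 CPM in WT. Its effects differed by −0.90 (adjusted p = 1.52e-06), short of the fold threshold of the stage comparison, as did those of Pcl (−0.89) and of jing (−0.88). Of the 8 PRC2 genes tested the stage comparison thus called 1 higher, E(z) itself, and 0 lower. Over all genes 6.59% were called higher and 8.07% lower in it, and 13.0% were called lower at cycle 14 alone. DESeq2 called 1 PRC2 gene higher and 3 lower, with a median difference over all genes of −0.18 in place of −0.03. No statement on the list as a whole is made.

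A gene was called when its adjusted p was under 0.05 and its absolute log2 difference at least 1. Of the 8467 genes tested, 558 (6.59%) had a higher effect of E(z)-KD at cycle 14 than before cycle 9 and 683 (8.07%) a lower one, so that 14.7% differed between the stages. With DESeq2 in place of edgeR the counts were 431 higher and 876 lower, a share of 33.0% higher against 45%, and the median difference over all genes moved to −0.18 from −0.03. Taken at each stage alone, E(z)-KD was higher in 626 genes (7.39%) and lower in 177 (2.09%) before cycle 9, 9.48% in all, and at cycle 14 it was higher in 948 genes (11.2%) and lower in 1100 (13.0%), 24.2% in all. Replicates of the genotypes did not overlap in 53.4% of all genes before cycle 9, in 68.1% at cycle 14 and in 39.6% at both stages, so separate groups alone are common here. Of the 1241 genes called in the stage comparison, the effect arose at cycle 14 in 730 (58.8%), being called at cycle 14 in the direction of the stage difference and not before cycle 9. It disappeared in 160 (12.9%), being called before cycle 9 and not at cycle 14, and it reversed in 64 (5.16%), being called at both stages with opposite signs. A further 87 genes (7.01%) were called at both stages with the same sign but a different size, E(z) among them, and the remaining 200 (16.1%) followed none of these patterns. Not being called at a stage does not show that there was no effect there, and the stage comparison is the test of the difference. The classes were defined by these calls, so the levels below describe them and add no test.

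**Figure D1:**
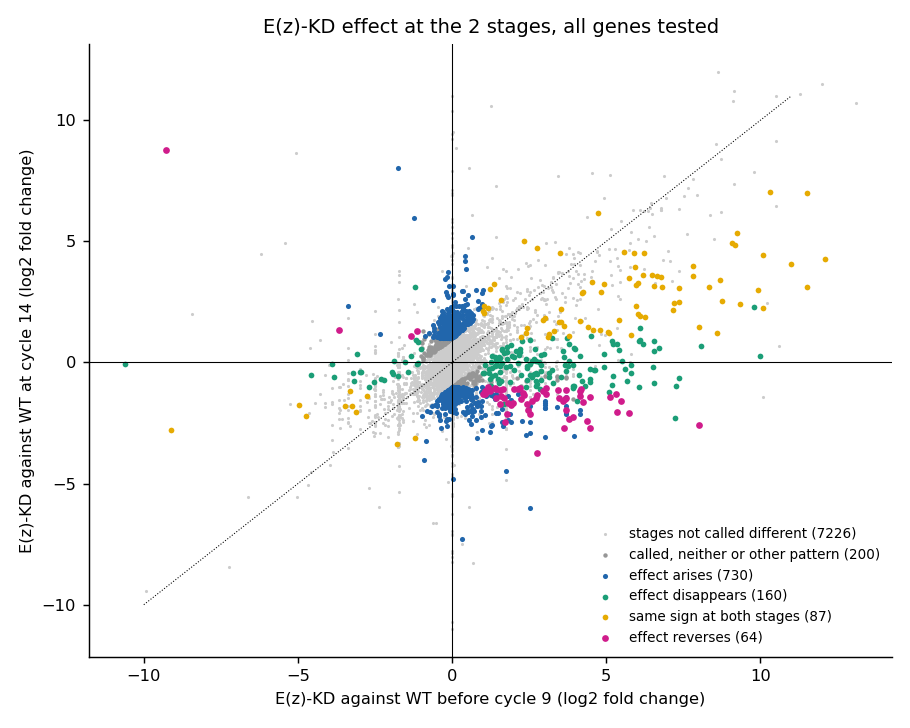
Each point is 1 of the 8467 genes tested, placed by the log2 fold change of E(z)-KD against WT before cycle 9 (horizontal axis) and at cycle 14 (vertical axis), and coloured by its class in the stage comparison; the dotted line marks equal effects. Of the 730 genes whose effect arose, 679 had a log2 effect under 1 in size before cycle 9, and all but 4 of the 64 reversing genes lie below right, higher in E(z)-KD before cycle 9 and lower at cycle 14.

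The largest class, 392 genes, was not called before cycle 9 and was higher in E(z)-KD at cycle 14. Most of these genes were abundant before cycle 9. Their median level before cycle 9 was 126 CPM in E(z)-KD and 124 CPM in WT, above the 42 CPM in E(z)-KD and 41.6 CPM in WT over all genes tested. At cycle 14 the median was 39.1 CPM in E(z)-KD against 13.4 CPM in WT. In WT 389 of the 392 fell between the stages, with a median change of −3.0 on the log2 scale, and in E(z)-KD the median change was −1.42, a smaller loss in knockdown embryos. CBP-KD embryos had a median change of −1.64 and a median level of 40.4 CPM at cycle 14. Their libraries were not in the contrast, but they entered the filter, the scaling and the estimate of spread behind these calls. The WT libraries set beside CBP-KD here also chose these genes, so the comparison adds no test. The number of genes with at least 1 CPM in E(z)-KD or WT at each stage was 386 of the 392.

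**Figure D2:**
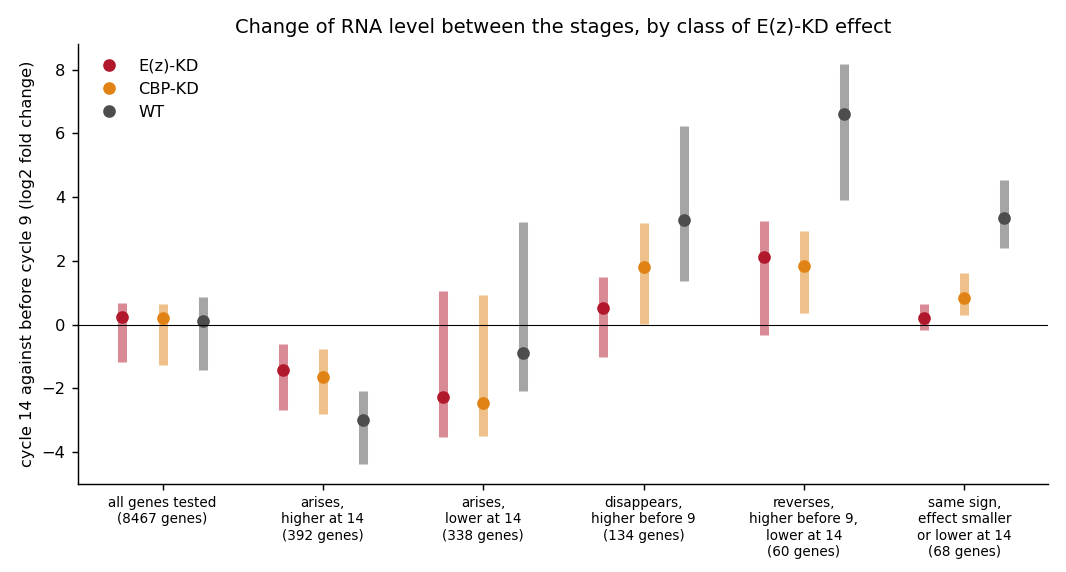
For each class of genes, points give the median and bars the lower to upper quartile of the log2 change from before cycle 9 to cycle 14 in E(z)-KD, CBP-KD and WT libraries. Genes whose effect arose upwards fell less in E(z)-KD (−1.42) and CBP-KD (−1.64) than in WT (−3.0); the changes of the 3 classes on the right depend on the prior count, since many of their genes were near 0 in WT before cycle 9.

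Genes of the oocyte and of embryonic axis formation were among those with a higher effect at cycle 14. oskar (osk), which nucleates the germ plasm at the posterior pole, had 1466, 1455 and 1447 CPM in E(z)-KD and 1789, 1510 and 1546 CPM in WT before cycle 9. At cycle 14 it had 332, 305 and 307 CPM in E(z)-KD against 64.4, 72.6 and 68.4 CPM in WT. The knockdown libraries were all below the WT libraries before cycle 9 by a margin that did not pass the test, and all above them at cycle 14, by 4.57-fold, and the effects differed by 2.34 ± 0.11 (adjusted p = 3.18e-11). The gap junction gene zero population growth (zpg), which germ cells need to survive, had 267, 263 and 251 CPM in E(z)-KD and 301, 284 and 298 CPM in WT before cycle 9, and 108, 115 and 107 CPM in E(z)-KD against 9.95, 8.52 and 10.2 CPM in WT at cycle 14. Groups did not overlap at either stage, with the sign turned, though only the 11.7-fold difference at cycle 14 passed the fold threshold (difference of effects 3.72 ± 0.09, adjusted p = 9.24e-15). The CBP-KD libraries had 98.6, 111 and 113 CPM of zpg at cycle 14, inside or close to the range of E(z)-KD.

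Of the 14 genes of the maternal axis list 4 were called higher in the stage comparison and 0 lower, against 6.59% higher over all genes, with a median difference of 0.44 (all genes −0.03), and all 4 arose at cycle 14. The anterior determinant bicoid (bcd) was at 210, 212 and 218 CPM in E(z)-KD and 222, 230 and 220 CPM in WT before cycle 9, and at 253, 265 and 249 CPM in E(z)-KD against 88.5, 123 and 96.7 CPM in WT at cycle 14. Thus bcd RNA was no lower in E(z)-KD embryos at cycle 14 than before cycle 9 on this scale, whereas it was lower in WT. The others were osk, the dorsoventral factor dorsal (dl, difference 1.70) and swallow (swa, 1.34), a gene needed for bcd RNA localisation. Among 8 germ plasm genes 3 were called higher and 0 lower (osk, vas and gcl, median 0.48; 2 and 0 with DESeq2), while the germ plasm gene nanos (nos) did not pass, with 92.7, 91.7 and 71.5 CPM in E(z)-KD and 66.8, 74.2 and 75.5 CPM in WT at cycle 14. Among 13 genes of the piRNA pathway, which silences transposons in the germline, 5 were called higher and 0 lower (vas, armi, del, qin and krimp, differences 1.05 to 1.17, median 0.49). With DESeq2 the last count was 2 higher and 1 lower. Of these vas, gcl, qin and krimp did not reach the fold threshold at either stage alone, and vas was lower in E(z)-KD before cycle 9 (−0.69) and higher at cycle 14 (0.46), so that their effects are not counted among those that arose. The calls of del, krimp, qin and twe (below) lie so close to the threshold that leaving out 1 library takes the value to 0.93 for del (without E(z)-KD replicate 1 at cycle 14), to 0.96 for krimp (without WT replicate 1 before cycle 9), to 1.00 for qin (without E(z)-KD replicate 1 at cycle 14) and to 0.97 for twe (without WT replicate 1 at cycle 14).

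Of 12 genes that act in maternal RNA clearance and translational repression 3 were called higher (6.59% over all genes) and 0 lower, all 12 had positive differences, and the median was 0.65, beside −0.03 over all genes. smaug (smg), whose protein recruits the deadenylase complex to maternal RNAs, was at 3495, 3501 and 3455 CPM in E(z)-KD and 3689, 3297 and 3336 CPM in WT before cycle 9. At cycle 14 it was at 3855, 3405 and 3751 CPM in E(z)-KD against 1324, 1757 and 1557 CPM in WT, with no overlap between the groups (difference of effects 1.23 ± 0.12, adjusted p = 1.99e-07). CBP-KD libraries had 3413, 3851 and 4146 CPM at that stage. The others called were aret (Bruno, 1.66) and cup (1.34), repressors of osk translation. Of 17 mitotic cyclins and checkpoint genes 3 were called higher and 0 lower, all 3 regulators of entry into mitosis. With DESeq2 the counts were 1 and 0, a share close to the 6.59% of all genes, so no statement on this list is made. The checkpoint kinase grapes (grp) was at 147, 144 and 145 CPM in E(z)-KD against 52.0, 59.1 and 53.1 CPM in WT at cycle 14 (difference 1.24 ± 0.07). The phosphatases string (stg, 1.14) and twine (twe, 1.05) were the others, twe without reaching the fold threshold at either stage alone. Of 10 histone variant and chaperone genes 2 were called higher and 0 lower (2 and 1 with DESeq2), Hira (1.40) and yem (1.21), which deposit the histone variant H3.3 onto paternal chromatin. Of 16 replication licensing genes 2 were called higher and 0 lower, the origin recognition genes Orc1 (1.14) and lat (1.07), where DESeq2 called 0 higher and 1 lower and lat was at 0.99 without E(z)-KD replicate 3 before cycle 9. The insulator protein CTCF (1.19) and the small heat shock protein Hsp27 (1.95) were the members called of their lists. Counts for cup and grp were non-whole in 100% and 94.4% of libraries, so that reads shared with overlapping genes may be divided among them.

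**Figure D3:**
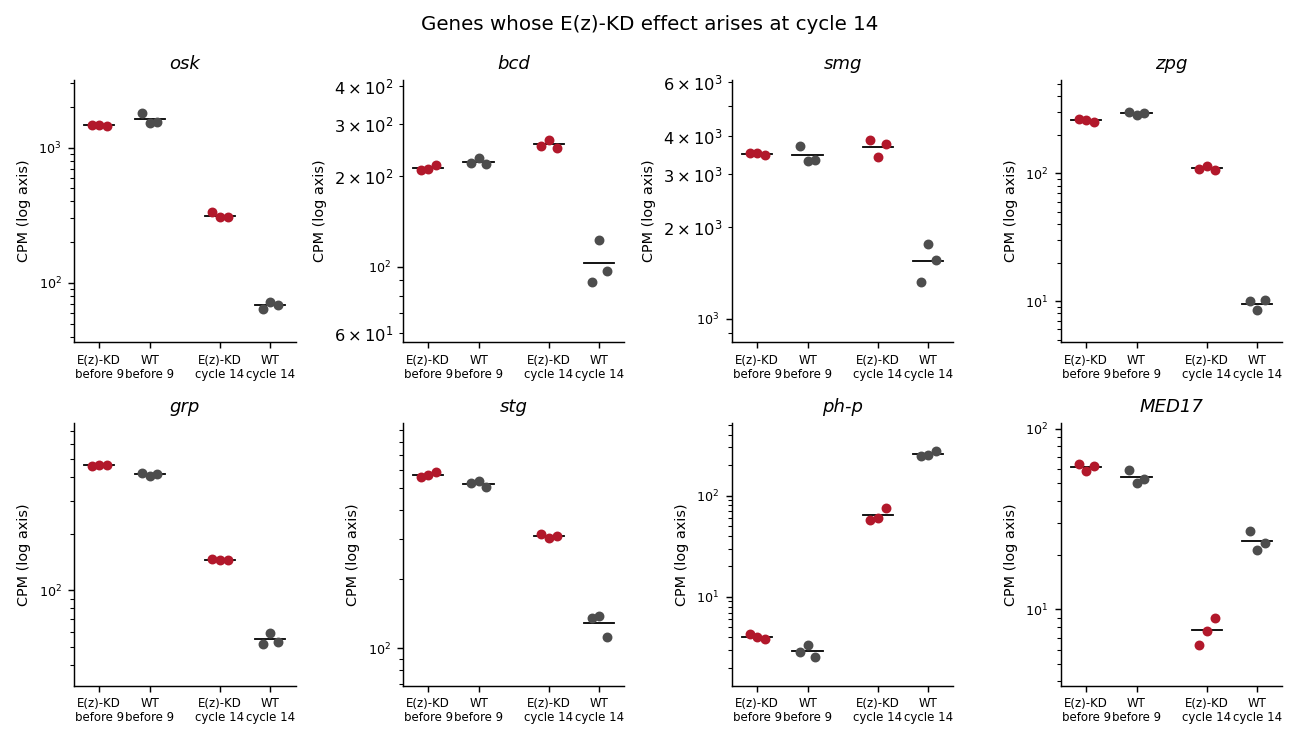
Points are the CPM of each library on a log axis and bars are group means, for 8 genes whose E(z)-KD effect arose at cycle 14, with E(z)-KD (red) and WT (grey) at each stage. The first 6 end higher in E(z)-KD (osk 332, 305 and 307 CPM against 64.4, 72.6 and 68.4 CPM in WT), while ph-p and MED17 end lower.

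By the rule that named the largest contrasts, mus312, Thor and zpg led this class. Thor, a translational repressor that binds the cap-binding factor, was scarce before cycle 9. It had 3.39, 2.42 and 4.48 CPM in E(z)-KD and 2.33, 2.56 and 2.79 CPM in WT before cycle 9, and 28.0, 52.1 and 38.8 CPM in E(z)-KD against 3.79, 1.40 and 1.63 CPM in WT at cycle 14. It was thus higher at cycle 14 than before cycle 9 in the knockdown libraries and not in WT (difference 3.77 ± 0.49, adjusted p = 8.33e-06), while CBP-KD libraries had 2.82, 1.87 and 1.39 CPM at cycle 14. The DNA repair gene mus312 had 52.4, 49.9 and 70.6 CPM in E(z)-KD against 0, 2.06 and 2.01 CPM in WT at cycle 14, but its counts are uncertain, since 94.4% of its values were not whole and CG42307 overlaps it on the same strand.

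In 338 genes the effect arose downwards. In WT 127 of them were higher and 211 lower at cycle 14 than before cycle 9. Their median level was 26.4 CPM in E(z)-KD and 26.5 CPM in WT before cycle 9, and 4.55 CPM in E(z)-KD against 12.0 CPM in WT at cycle 14. The median in CBP-KD was 4.51 CPM. In 76 of the 338 neither genotype reached 1 CPM before cycle 9.

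The Polycomb gene polyhomeotic (ph-p), a subunit of the complex PRC1 that binds the mark E(z) deposits, was the leading example among chromatin genes. It had 4.29, 3.97 and 3.82 CPM in E(z)-KD and 2.82, 3.35 and 2.52 CPM in WT before cycle 9, and 56.9, 60.6 and 74.8 CPM in E(z)-KD against 247, 254 and 275 CPM in WT at cycle 14. It was thus higher at cycle 14 in both genotypes, and 4.04-fold lower in E(z)-KD there (difference of effects −2.49 ± 0.26, adjusted p = 8.71e-07). The ph locus holds a pair of near-identical genes and 94.4% of the values of ph-p were not whole, so its count may be shared with ph-d. Of the 10 PRC1 and PhoRC genes 3 were called lower (8.07% over all genes) and 0 higher in the stage comparison, the others being Su(z)2 (−1.26) and Pc (−1.17). The median of the list was −0.36, beside −0.03 over all genes. In sign 9 of 10 differences were negative, a count that includes genes that were not called. Pc had 137, 131 and 138 CPM in E(z)-KD and 107, 104 and 103 CPM in WT before cycle 9, against 31.7, 36.1 and 31.8 CPM in E(z)-KD and 62.2, 52.8 and 59.2 CPM in WT at cycle 14, so its groups changed places. Neither Pc nor Su(z)2 reached the fold threshold at a single stage. Of the 13 Trithorax group and remodelling genes 0 were called in either direction, and likewise 0 of 11 histone acetyltransferases and deacetylases. Over all genes 14.7% were called in either direction, and lists this short cannot show a share below that.

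Of the lists of general function, those of Mediator, mitochondrial ribosomal proteins and the proteasome had a share called in either direction near that of all genes. The share was 16% of Mediator subunits, 12.3% of mitochondrial ribosomal protein genes and 14.3% of proteasome genes, beside 14.7% over all genes. All of these calls were lower, where 8.07% of all genes were called lower and 6.59% higher. The members below are given as single genes and not as a result about the lists. The subunit MED17 of Mediator, the bridge between transcription factors and RNA polymerase, had 63.8, 58.3 and 61.9 CPM in E(z)-KD and 59.3, 49.9 and 52.8 CPM in WT before cycle 9. It had 6.39, 7.59 and 8.99 CPM in E(z)-KD against 27.3, 21.4 and 23.3 CPM in WT at cycle 14. Both genotypes fell, E(z)-KD by more, and the groups did not overlap at cycle 14 (difference −1.82 ± 0.21, adjusted p = 1.49e-06). Of the 25 Mediator subunits 4 were called lower and 0 higher, against a median of −0.11 over the list. Of 73 mitochondrial ribosomal protein genes 9 were called lower and 0 higher (median −0.06), led by mRpL46 (−1.88) and mRpS2 (−1.61). Of 35 proteasome genes 5 were called lower and 0 higher (3 and 0 without TMM factors), but the calls of Rpn7, Rpn11, Rpt3R and Rpt6R did not survive the loss of single libraries (Rpt6R −3.20, adjusted p = 0.082 without WT replicate 1 at cycle 14), and Rpt6R was higher in E(z)-KD at both stages. The cytoplasmic ribosomal proteins had 0 calls of 85, with 83 negative differences and a median of −0.14.

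**Figure D4:**
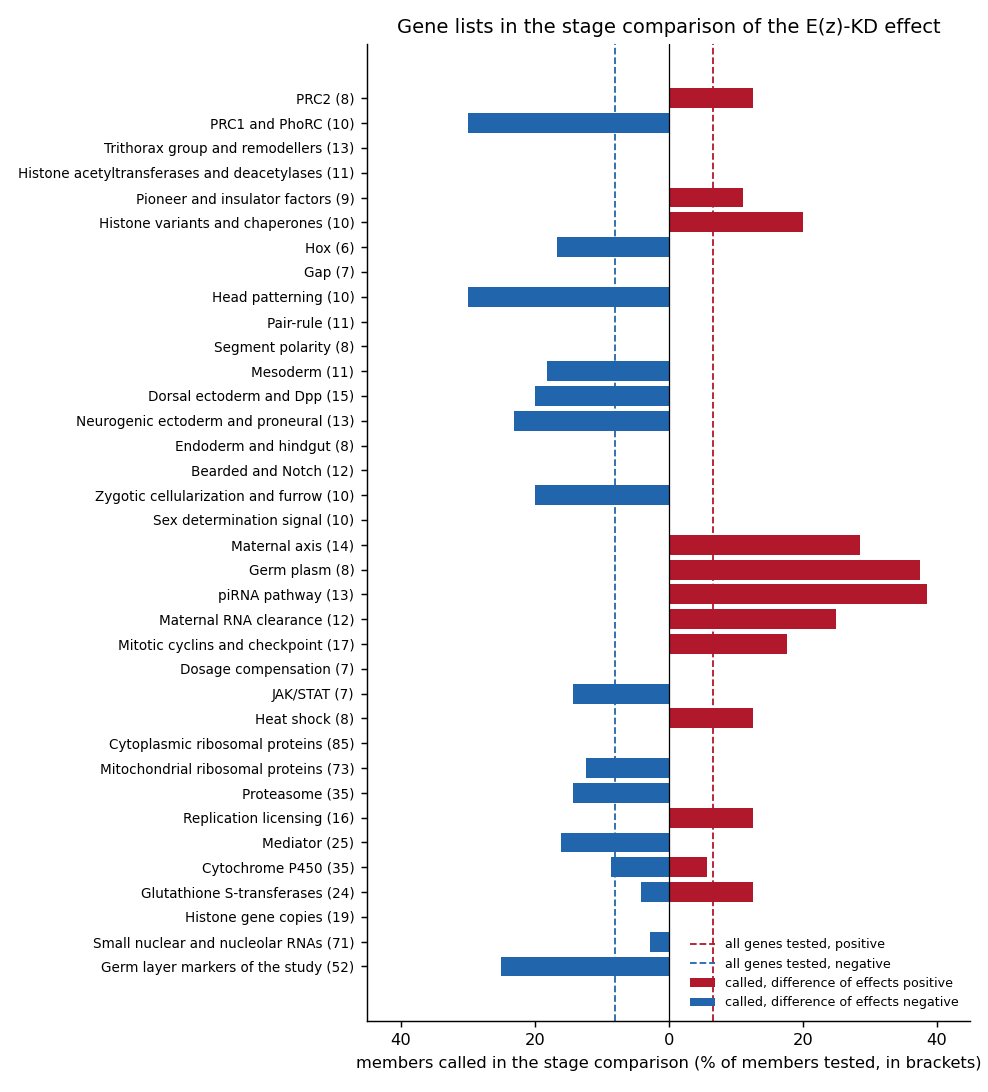
Bars give the percentage of the tested members of each gene list called in the stage comparison, to the right where the difference of effects was positive and to the left where it was negative, and dashed lines give the same percentages over all genes tested (6.59% and 8.07%). Maternal, germ plasm and piRNA lists had calls to the right alone (with DESeq2 1 piRNA gene was called to the left), and PRC1, Mediator and mitochondrial ribosomal lists to the left alone; shares close to the dashed lines are not results about a list.

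Patterning genes showed the limit of the comparison. At cycle 14, where 13.0% of all genes were lower and 11.2% higher in E(z)-KD, it was called lower than WT in 9 of 11 pair-rule genes, 8 of 8 segment polarity genes, 5 of 6 Hox genes, 7 of 11 mesoderm genes and 8 of 15 dorsal ectoderm and Dpp genes, with 0 called higher in each of these lists. Of 13 neurogenic and proneural genes 7 were lower and 1 higher, of 8 endoderm and hindgut genes 2 lower and 2 higher, and of 7 gap genes 1 lower and 0 higher. In the stage comparison 0 of the pair-rule and 0 of the segment polarity genes were called with edgeR, and 2 and 1 were called lower with DESeq2. All 11 pair-rule genes and 7 of 8 segment polarity genes were under 1 CPM in both genotypes before cycle 9, where a ratio is poorly measured. Among all genes tested, 702 were called at cycle 14 and under 1 CPM in both genotypes before cycle 9, of which 594 were lower in E(z)-KD, and 115 of the 702 (16.4%) were called in the stage comparison. The share was 766 of 1346 (56.9%) among the genes called at cycle 14 that reached 1 CPM in either genotype at the earlier stage. A stage difference was thus called less often among genes scarce before cycle 9, at this depth. The Hox gene Ubx had 1.69, 0.926 and 2.20 CPM in E(z)-KD against 12.5, 9.03 and 9.59 CPM in WT at cycle 14, and before cycle 9 it was at 0 in every E(z)-KD library and at 0, 0.284 and 0 CPM in WT. The 1 Hox gene called in the stage comparison was Abd-B, the selector of the posterior abdomen (adjusted p = 0.0032). It had 0.113, 0.538 and 0.277 CPM in E(z)-KD and 0 counts in WT before cycle 9, at least 1.78-fold higher on 15 counts. Later Abd-B had 3.26, 2.37 and 4.46 CPM in E(z)-KD and 5.53, 5.58 and 3.74 CPM in WT at cycle 14, overlapping groups, so its effect disappeared.

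A patterning gene near 0 in WT before cycle 9 could pass the stage comparison mainly where E(z)-KD had counts there. Early RNA in E(z)-KD among such called genes is therefore close to a condition of the call and no separate result. The 52 germ layer markers are published marker genes with which the study annotated its single-nucleus clusters. In the stage comparison 13 of them (25%) were called lower and 0 higher, beside 8.07% and 6.59% over all genes. Of the 13, 5 reversed, 2 disappeared and 5 arose. At cycle 14 alone 26 of the 52 were lower in E(z)-KD and 1 higher (13.0% and 11.2% over all genes). Before cycle 9 alone 7 were higher and 1 lower (7.39% and 2.09%), and 31 were under 1 CPM in both genotypes there. The FGF receptor gene heartless (htl), needed for mesoderm spreading, had 0.791, 1.48 and 0.885 CPM in E(z)-KD against 0, 0 and 0.112 CPM in WT before cycle 9. At cycle 14 it had 12.8, 7.70 and 12.8 CPM in E(z)-KD against 80.4, 67.4 and 70.8 CPM in WT, so the groups were separate at both stages in opposite order. Before cycle 9 the counts were 52 in E(z)-KD and 2 in WT, a ratio of 26.6 (7 to 225, counting interval), and at cycle 14 E(z)-KD was 6.56-fold lower. The T-box gene Doc3, an amnioserosa regulator, had 55 counts in E(z)-KD and 1 in WT before cycle 9 (ratio 56.3, 9.68 to 2262) and was 2.45-fold lower in E(z)-KD at cycle 14. The neural column selector ventral nervous system defective (vnd) had 3.22, 4.64 and 4.98 CPM in E(z)-KD against 0, 0 and 0.0559 CPM in WT before cycle 9. At cycle 14 vnd had 41.5, 56.0 and 54.6 CPM in E(z)-KD against 93.4, 105 and 102 CPM in WT. That lower level (−0.98) missed the fold threshold, so vnd counts as an effect that disappeared. The head homeobox genes Gsc and Lim1 reversed as well (adjusted p = 2.67e-05 and 3.66e-05), on 17 counts of Gsc in E(z)-KD and 0 in WT before cycle 9, at least 1.89-fold higher. The log2 differences of these genes depend on the prior count and are not given as sizes.

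The hindsight gene pebbled (peb), a zinc finger factor of the amnioserosa, could be measured at both stages. It had 2.32, 2.76 and 1.99 CPM in E(z)-KD and 1.23, 1.19 and 1.23 CPM in WT before cycle 9, against 6.14, 3.18 and 8.50 CPM in E(z)-KD and 18.5, 22.6 and 19.7 CPM in WT at cycle 14. E(z)-KD lay above WT at the first stage and below it at the second, and only the second difference passed the fold threshold (difference of effects −2.72 ± 0.35, adjusted p = 4.95e-06). CG30015 (−2.83) and CG15628 (−2.70) were the other leading genes of the class. CG30015 had 70.7, 63.2 and 78.3 CPM in E(z)-KD against 314, 312 and 338 CPM in WT at cycle 14, and 33.1, 20.3 and 15.9 CPM in CBP-KD. The EGF ligand vein (vn, −1.44) was called as well. The genes wgn, rho, egr, croc and Socs36E and the cellularisation and furrow genes T48 and Sry-alpha were also called lower. Each of them lost its call when a single library was left out. Of the 12 libraries this held for 1 in wgn (E(z)-KD replicate 3 before cycle 9, adjusted p = 1), 4 in rho (adjusted p up to 0.11), 7 in egr, 9 in croc and 11 in Socs36E. It held for 3 in Sry-alpha and 1 in T48 (−0.99 without E(z)-KD replicate 3 at cycle 14).

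Reversal was almost one-sided. In 60 of the 64 genes E(z)-KD was higher than WT before cycle 9 and lower at cycle 14, and in 4 the order was the other way round. The 60 had a median level of 1.31 CPM in E(z)-KD and 0.212 CPM in WT before cycle 9, and 4.4 CPM in E(z)-KD against 12.6 CPM in WT at cycle 14. In WT 55 of the 60 were higher at cycle 14 than before cycle 9, and in E(z)-KD 44 were. At least 1 CPM in E(z)-KD or WT at each stage was reached by 34 of the 60. In 25 of the 60 neither genotype reached 1 CPM before cycle 9. A gene near 0 in WT at that stage can be called higher there but hardly lower. Of all 803 genes called before cycle 9, 626 were higher, so the direction of reversal is no separate result.

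The zinc finger gene l(3)neo38 had the largest such contrast among well-measured genes. It had 96.1, 93.2 and 107 CPM in E(z)-KD against 3.13, 2.56 and 2.79 CPM in WT before cycle 9, a 34.9-fold difference. At cycle 14 it had 221, 217 and 229 CPM in E(z)-KD against 603, 579 and 595 CPM in WT, 2.67-fold lower in E(z)-KD. No libraries of the groups overlapped at either stage (difference of effects −6.54 ± 0.37, adjusted p = 1.31e-08). CBP-KD libraries had 15.4, 17.1 and 18 CPM before cycle 9 and 78.1, 48.1 and 30.8 CPM at cycle 14. The gene lies on chromosome 3R, positions 11765038 to 11779128, with no overlapping gene.

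CG3036 on chromosome 2L had 58.1, 60.0 and 55.7 CPM in E(z)-KD against 3.07, 2.67 and 3.74 CPM in WT before cycle 9, and 79.1, 79.6 and 97.2 CPM in E(z)-KD against 201, 169 and 181 CPM in WT at cycle 14. Between the stages it changed less in E(z)-KD than in WT, and the effects differed by −5.30 ± 0.18 (adjusted p = 6.51e-13). corn on chromosome 3L had 5.20, 7.13 and 6.20 CPM in E(z)-KD against 0.797, 0.625 and 1.34 CPM in WT before cycle 9. It had 54.6, 44.6 and 58.2 CPM in E(z)-KD against 139, 147 and 144 CPM in WT at cycle 14, again with no overlap (−4.17 ± 0.50, adjusted p = 1.28e-05). CG2837 overlaps CG3036 and melt overlaps corn, each on the opposite strand, and the strand setting of the counting is not given in the sources used here.

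Several genes of cell adhesion, guidance and signalling reversed as well, and are named here after their values were seen. slit (sli), the ligand of the Robo guidance receptors, had 53.9, 61.0 and 55.6 CPM in E(z)-KD against 7.79, 7.61 and 6.76 CPM in WT before cycle 9, and 428, 411 and 484 CPM in E(z)-KD against 849, 1006 and 1102 CPM in WT at cycle 14. The synaptotagmin-like gene btsz (−4.12), the trunk selector teashirt (tsh, −4.09), the cadherin CadN (−5.18) and the Wingless receptor gene fz2 (−2.23) had the same order of groups. The PDZ domain gene bbg was 1 of 16 among the 60 whose level in E(z)-KD was lower at cycle 14 than before cycle 9. It had 58.5, 60.8 and 59.2 CPM in E(z)-KD against 14.3, 11.6 and 13.2 CPM in WT before cycle 9, and 28.5, 16 and 22.4 CPM in E(z)-KD against 52.8, 45.7 and 41.3 CPM in WT at cycle 14. Knockdown libraries were thus lower and WT libraries higher at cycle 14 than before (−3.25 ± 0.25, adjusted p = 2.27e-08). blot, abundant before cycle 9 in both genotypes, was lower at cycle 14 in both genotypes.

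**Figure D5:**
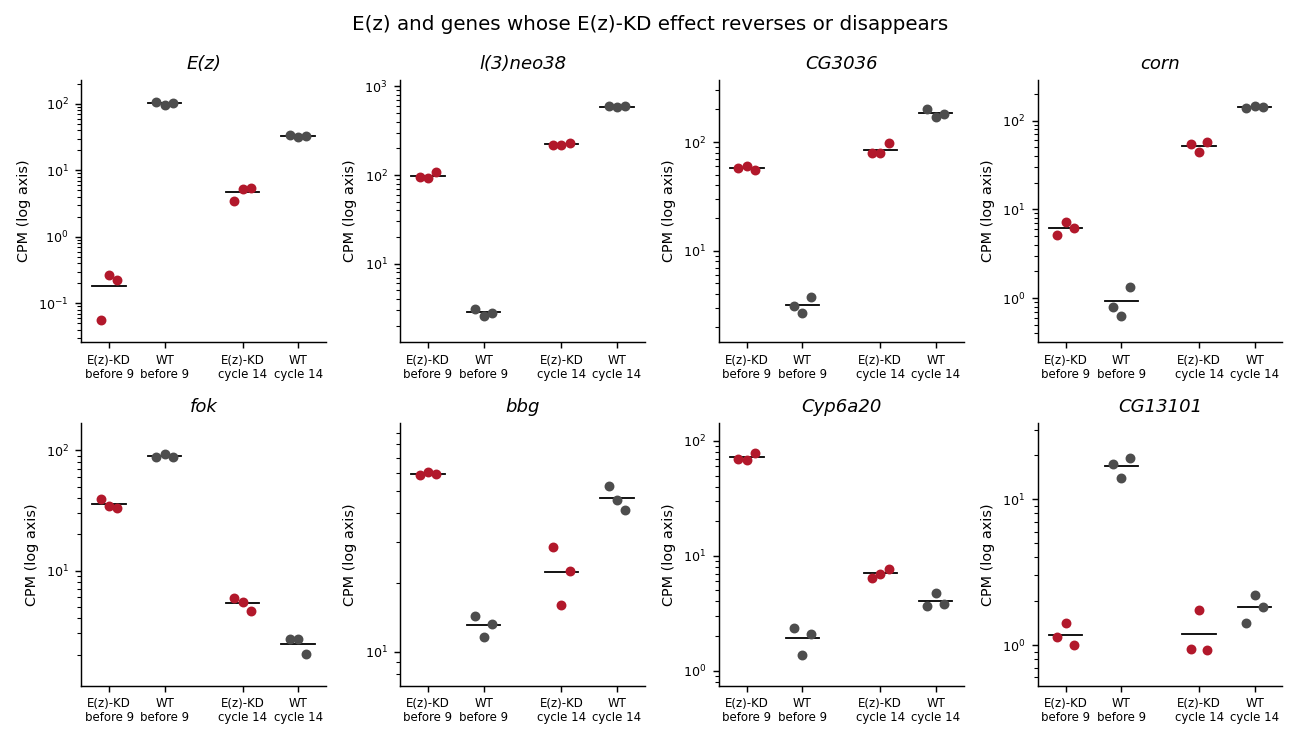
Points are the CPM of each library on a log axis and bars are group means, for E(z) and 7 genes, with E(z)-KD (red) and WT (grey) at each stage. l(3)neo38, CG3036, corn and bbg are higher in E(z)-KD before cycle 9 and lower at cycle 14, fok is the reverse, and Cyp6a20 and CG13101 differ far more before cycle 9 than at cycle 14.

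In the other direction fledgling of Klp38B (fok) was the 1 gene that met the rule for naming. It had 39.4, 34.3 and 33.3 CPM in E(z)-KD against 87.9, 93.0 and 88.1 CPM in WT before cycle 9, and 5.89, 5.50 and 4.60 CPM in E(z)-KD against 2.69, 2.72 and 2.01 CPM in WT at cycle 14. The groups were separate at each stage, 2.51-fold lower in E(z)-KD and then 2.16-fold higher (difference of effects 2.44 ± 0.18, adjusted p = 6.01e-09), and neb overlaps the gene on the opposite strand. CBP-KD libraries had 38.2, 40.4 and 43.1 CPM of fok at the first stage. Among the other 3, CG8089 (2.43) had 10.4 CPM or more in every E(z)-KD and WT library before cycle 9 and at most 2.13 CPM in every one at cycle 14. CG31743 rested on 2 WT libraries, with 8.4, 6.93 and 0 CPM in WT before cycle 9, and CG9368 on 5 counts in WT before cycle 9.

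The 160 effects that disappeared were mainly early increases. In 134 genes E(z)-KD was higher than WT before cycle 9 and not called at cycle 14, and in 26 it was lower. Increases also prevailed among all 803 genes called before cycle 9, with 626 higher and 177 lower, so this direction is not particular to the class. The 134 were scarce, with a median of 1.83 CPM in E(z)-KD and 0.176 CPM in WT before cycle 9, and 2.55 CPM in E(z)-KD against 2.76 CPM in WT at cycle 14. In WT 115 of the 134 were higher at cycle 14 than before cycle 9. In E(z)-KD 45 rose and 33 fell between the stages by the thresholds of a call, so the effects closed in more than one way. In 75 of the 134 one or both genotypes reached 1 CPM at each stage. The 26 early decreases had medians of 1.91 CPM in E(z)-KD and 12.7 CPM in WT before cycle 9, and of 1.67 CPM in E(z)-KD and 1.88 CPM in WT at cycle 14.

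The integrin subunit gene scab (scb) had 10.6, 11.8 and 10 CPM in E(z)-KD against 0.245, 0.114 and 0.112 CPM in WT before cycle 9, and 18.5, 12.2 and 15.8 CPM in E(z)-KD against 31.1, 28.5 and 32.8 CPM in WT at cycle 14. Its second effect, −0.99 ± 0.35, fell just short of the fold threshold in the opposite direction (difference of effects −7.04 ± 0.63, adjusted p = 1.99e-07). Drat had 7.06, 8.07 and 7.08 CPM in E(z)-KD against 0, 0 and 0.0559 CPM in WT before cycle 9, and 10.1, 7.30 and 11.1 CPM in E(z)-KD against 5.69, 6.53 and 5.46 CPM in WT at cycle 14. On 1 count in WT, its early ratio of 381 had a counting interval of 68.1 to 15108. CG32783, the other gene named by the rule, varied among E(z)-KD libraries and 88.9% of its values were not whole. The tracheal master regulator trachealess (trh), seen after the values were known, had 10.7, 7.80 and 8.80 CPM in E(z)-KD against 0.245, 0 and 0 CPM in WT before cycle 9. At cycle 14 trh had 3.88, 3.24 and 3.26 CPM in E(z)-KD and 2.69, 2.13 and 2.11 CPM in WT. The gene tweety (tty) was the clearest case of WT coming up to a knockdown level that changed less, with 28.6, 29.3 and 36.0 CPM in E(z)-KD against 2.33, 1.82 and 2.01 CPM in WT before cycle 9, and 38.4, 37.9 and 41.9 CPM in E(z)-KD against 39.6, 44.7 and 41.5 CPM in WT at cycle 14. The groups of tty were far apart early and overlapped later (−4.02 ± 0.20, adjusted p = 6.31e-11).

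Another group of early increases was lost from E(z)-KD embryos themselves. The cytochrome P450 gene Cyp6a20 had 69.4, 68.9 and 78.2 CPM in E(z)-KD against 2.33, 1.36 and 2.07 CPM in WT before cycle 9, and 6.45, 6.89 and 7.72 CPM in E(z)-KD against 3.63, 4.77 and 3.83 CPM in WT at cycle 14. Its 37.5-fold difference shrank to 1.70-fold as its RNA dropped in knockdown embryos (−4.47 ± 0.24, adjusted p = 1.82e-10), and CBP-KD libraries had 18.7, 22.2 and 20.6 CPM before cycle 9. The copper transporter gene Ctr1B, with 7.51, 8 and 9.74 CPM in E(z)-KD before cycle 9 and 0 counts in WT, at least 48.4-fold higher, was at most 0.474 CPM in every E(z)-KD and WT library at cycle 14. Of 35 cytochrome P450 genes tested 2 were called higher and 3 lower in the stage comparison (0 and 4 with DESeq2), 14.3% of the list, and of 24 glutathione S-transferase genes 3 higher and 1 lower (1 and 2 with DESeq2), 16.7%, both close to the 14.7% over all genes. The calls of Cyp6a13, Cyp6a17, Cyp9f2, GstO3 and GstT2 were each lost when single libraries were left out, any of 9, 7, 8, 8 and 2 of the 12. GstT4, the lower one, had 62.1, 75.1 and 95.2 CPM in E(z)-KD against 0.0613, 0 and 0 CPM in WT before cycle 9 and stayed higher at cycle 14, with 18.4, 18.1 and 27.5 CPM in E(z)-KD against 2.05, 3.01 and 2.20 CPM in WT.

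Early decreases that disappeared were led by CG13101, Reg-5 and CG4733. CG13101 had 1.13, 1.41 and 0.996 CPM in E(z)-KD against 17.3, 14.0 and 19.1 CPM in WT before cycle 9. At cycle 14 it had 0.939, 1.74 and 0.921 CPM in E(z)-KD and 1.42, 2.20 and 1.82 CPM in WT, so an early 14.2-fold gap had closed to overlapping groups (3.22 ± 0.42, adjusted p = 6.33e-06). CBP-KD libraries had 1.30, 1.56 and 2.22 CPM before cycle 9, also far below WT. Reg-5 had 1.81, 1.75 and 1.94 CPM in E(z)-KD, 2.22, 2.08 and 3.12 CPM in CBP-KD, and 14.3, 14.5 and 13.7 CPM in WT before cycle 9, and all 3 E(z)-KD and WT libraries at cycle 14 were under 2 CPM. CG4733 showed the same pattern (2.42).

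A last set kept the sign of its effect and changed its size. In 68 of these 87 genes the stage difference was negative. Their median level was 7.70 CPM in E(z)-KD and 0.0768 CPM in WT before cycle 9, and 7.14 CPM in E(z)-KD against 1.07 CPM in WT at cycle 14, so the knockdown median was similar at both stages and the WT median was near 0 at the first. Teneurin-a (Ten-a), a synaptic adhesion gene seen after the values were known, had 175, 181 and 177 CPM in E(z)-KD against 3.99, 4.03 and 4.58 CPM in WT before cycle 9, and 274, 241 and 272 CPM in E(z)-KD against 82.1, 80.2 and 73.1 CPM in WT at cycle 14. Its 42.2-fold difference became 3.35-fold (−3.65 ± 0.17, adjusted p = 4.01e-11), and 72.2% of its values were not whole. CBP-KD libraries had 67.2, 81.3 and 70.8 CPM before cycle 9. The arrestin-domain gene Vdup1 had 33.2, 34.0 and 45 CPM in E(z)-KD and 0 counts in WT before cycle 9, at least 215-fold higher, and 42.0, 41 and 47.6 CPM in E(z)-KD against 3.16, 1.76 and 2.11 CPM in WT at cycle 14. CBP-KD libraries had at most 0.52 CPM of Vdup1 early. The adenylyl cyclase gene rutabaga (rut) was an exception in that its effect grew, with 113, 110 and 103 CPM in E(z)-KD against 9.75, 10.2 and 8.66 CPM in WT before cycle 9 and 83.8, 74.2 and 90.7 CPM in E(z)-KD against 2.84, 3.67 and 3.83 CPM in WT at cycle 14. The nucleoporin gene Nup75 was lower in E(z)-KD at both stages, at 8.13, 8.54 and 8.58 CPM against 94.5, 91.7 and 93.3 CPM in WT before cycle 9, and at 11.2, 14.6 and 14.3 CPM against 44.9, 45.4 and 47.0 CPM in WT at cycle 14. CBP-KD had 102, 96.3 and 104 CPM of Nup75 before cycle 9.

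Genes under 1 CPM in both genotypes at 1 stage were ranked apart. Before cycle 9 this held for CanA1, DAT and CG9932, which were higher in E(z)-KD at cycle 14, and for CG33791, CG17323 and ct, which were lower. The homeobox gene cut (ct) had 0.188, 0.290 and 0.212 CPM in E(z)-KD against 6.16, 4.55 and 5.46 CPM in WT at cycle 14 (22.4-fold lower, adjusted p = 4.11e-07), on 11 counts in E(z)-KD and 3 in WT before cycle 9. The calcineurin subunit gene CanA1 had 2.19, 2.61 and 1.63 CPM in E(z)-KD and 0 counts in WT at cycle 14, at least 6.55-fold higher, while its stage difference rests on 1 WT count before cycle 9 and had an adjusted p of 1 without that library, WT replicate 1. The calls of DAT (without the same library, adjusted p = 0.074), of CG9932 (without any of 9 libraries, adjusted p up to 0.12) and of CG33791 (without any of 4, up to 0.1) were lost likewise. At cycle 14 both genotypes were under 1 CPM for Ctr1B, CR45215 and CG33003, which were higher in E(z)-KD before cycle 9, and for Ptp52F, CG30398 and CG9368, which were lower there on 13, 6 and 5 WT counts. CR45215 overlaps Ctr1B on the same strand and lost its call without WT replicate 2 at cycle 14 (adjusted p = 1), Ptp52F without any of 8 libraries and CG30398 without any of 6.

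The calls were spread over the genome. On the chromosome arms 2L, 2R, 3L, 3R and X 13.9% to 15.4% of the genes tested were called, and 5 of 81 (6.17%) on chromosome 4. The strain marker yellow (y) had 161, 148 and 139 CPM in E(z)-KD against 1.42, 2.20 and 1.82 CPM in WT at cycle 14, and its effects were not called different between the stages (0.21). Genes on the opposite strand also overlap osk, zpg, MED17, vnd, CG13101 and CG4733, so that their counts carry the same uncertainty as those of CG3036 and corn.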

How the data were processed

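The deposited table holds estimated counts per gene and library for 18 libraries of embryos, as the authors made it from strand-specific, rRNA-depleted RNA-seq reads mapped to dm6 with STAR with multimapping reads kept. Not whole, by a tolerance of 0.01, were 2.9% of the values, and the program behind the fractions, the annotation and the strand setting are not given in the sources used here. ERCC spike-ins were added by the authors and are not used here. Expected counts were rounded to whole numbers. Genes were kept by filterByExpr, libraries were scaled with TMM factors (0.989 to 1.02 in the 12 compared) and 1 mean per group was fitted with the quasi-likelihood test of edgeR 4.0.16 in R 4.3.3 (12 residual degrees of freedom, common biological coefficient of variation 0.115), with p-values adjusted by Benjamini-Hochberg over all 8467 genes tested. On data simulated for the stage comparison, 195 of 200 genes changed by a log2 difference of 2 were recovered (97.5%). Among the 8270 genes of that simulation, 4 unchanged genes were called. These rates were not broken down by level. They therefore do not show recovery or false calls among genes with few counts, such as many that reversed or disappeared. The series calls the libraries of a group biological replicates. An exact permutation test of 3 against 3 libraries could not go below p = 0.1.

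Of the 16680 gene names 12504 matched a current symbol, 3948 an older name of 1 gene and 228 neither. Coordinates are those of dm6. Named genes are E(z), the 3 largest stage differences of each class and direction among genes with at least 1 CPM at each stage and 5 CPM in the higher group where called, with replicates that do not overlap there, the 3 largest among genes under 1 CPM at 1 stage, and up to 5 called members of each of 40 gene lists; others are said to be named after their values were seen. Members, lists and tests were chosen with earlier results of these data known. Bounds against groups at 0 use 3 counts per library, and intervals of ratios cover counting error only at 95%. Alternatives were DESeq2 1.42.0, other scalings, filters and thresholds, thinning to the smallest library, a replicate block, the 12 libraries alone and each library left out. Restricting genes to 1 CPM at each stage was added after seeing the data. Sequences are not printed here.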

Additional observations from a re-analysis of the deposited data

Results flagged for a closer look

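The effect of E(z)-KD differed between cycle 14 and before cycle 9 by the test of the difference itself in 558 genes with a higher and 683 with a lower effect at cycle 14. The single genes given here were chosen by the rule for naming from the called genes, and not as the largest differences of all. E(z), the targeted gene, had effects that differed by 6.31 on the log2 scale. Its RNA was at 3.51 to 5.45 CPM in E(z)-KD at cycle 14 and at 0.0565 to 0.269 CPM before cycle 9. The others are the well-measured reversals that met that rule. Higher in E(z)-KD before cycle 9 and lower at cycle 14 were l(3)neo38 (−6.54), CG3036 (−5.30) and corn (−4.17). In fok (2.44) E(z)-KD was lower before cycle 9 and higher at cycle 14. Groups of 3 libraries are too small for the test of single outlying samples.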

How the results depend on the processing

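The counts given above were 558 genes higher, 683 lower, 730 whose effect arose, 160 whose effect disappeared and 64 whose effect reversed. Without the fold threshold they were 1977, 1477, 1955, 371 and 465, and tested against a log2 difference of 1 the first 4 were 235, 265, 305 and 79. With at least 10 counts in every E(z)-KD and WT library, 393 genes were lower, 45 disappeared and 19 reversed. Thinning to the smallest library gave 98 that disappeared and 42 that reversed, and genes with 1 CPM at each stage, a limit added after seeing the data, gave 91 and 37. Calling the single stages by adjusted p alone gave 254 that reversed. DESeq2 gave 431 higher and 876 lower and kept 1093 of the 1241 calls with their direction. Leaving out 1 library gave 520 to 623 higher, 632 to 672 lower, 666 to 795 arising, 143 to 164 disappearing and 55 to 62 reversing, and 5.88 to 6.64 for E(z), whose value is 6.31. E(z) could not be tested under the filter on 10 counts.

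Same-numbered replicates did not in general deviate together (r −0.17 to 0.17 over 18 pairs, 2 of them over 0.1). Both pairs over 0.1 were E(z)-KD against WT before cycle 9. There the same-numbered r were 0.17, 0.044 and 0.154, and the other-numbered r ran from −0.169 to 0.004. Whether the numbers pair those libraries was therefore not settled. With a replicate block there were 550 higher, 659 lower, 716 arising, 152 disappearing and 63 reversing genes. Of 92 named genes other than E(z), 0 reversed, 41 kept their call in every alternative run that tested them and 30 lost it when a library was left out. The filter on 10 counts tested only 54 of the 92 and thinning 86. The 12 libraries alone tested 89 and DESeq2 91. Depth limits genes with few counts in either genotype before cycle 9, where 3 counts are worth 0.166 to 0.202 CPM.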
